A study of Mus musculus with 25 samples.

Results

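The collagen gene family was followed across 5 embryonic mouse mesenchymes. Its members were 42 collagen chain genes, found by matching the Ensembl identifiers of the deposited count table to gene symbols, and all 42 were among the 35880 genes of the table. Of these, 41 passed the expression filter and were tested, and Col10a1 was not tested. The members were grouped into fibrillar collagens, basement membrane network collagens, hexagonal network collagens, beaded filament collagens, the anchoring fibril collagen, FACITs (fibril-associated collagens with interrupted triple helices), transmembrane collagens, multiplexins and 2 other chains.

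RNA-Seq was done on 25 pools of C57Bl/6JOlaHsd tissue, 5 for each of the fat pad precursor at E16.5 (E16.5 FP), the mesenchyme around the mammary sprout at E16.5 (E16.5 MM), the mesenchyme around the mammary bud at E13.5 (E13.5 MM), E13.5 ventral skin mesenchyme from outside the mammary area (E13.5 VM) and submandibular salivary gland mesenchyme at E13.5 (E13.5 SM). No embryo carried a transgene or a treatment according to the labels, and both E16.5 tissues are labelled female whereas no sex is given at E13.5. Explants were digested with Dispase II and then with pancreatin and trypsin, and the epithelium was removed by microdissection. Each pool held tissue of 2 to 3 embryos of 1 litter, and the 5 pools of a tissue came from 3 litters, so p-values measure the spread between pools, some of which shared a litter.

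Collagens are trimeric proteins that make up most of the connective tissue matrix. Fibrillar collagens assemble into the cable-like fibrils of dermis and other stroma, type IV collagen forms the sheet of basement membranes, type VI forms beaded microfilaments, type VII anchors the epidermal basement membrane to the dermis, and FACITs sit on the surface of fibrils. In a developing gland the mesenchyme is the main source of fibrillar collagen, and the basement membrane between epithelium and mesenchyme receives chains from several cell types.

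Library totals ranged from 20678150 to 34448304 counts with a median of 26370369. Summed CPM (counts scaled to a common library size) of 6 mesenchyme markers lay between 2523 and 3745 in all pools. Most of this sum came from Vim, with medians of 1992, 1750, 1090, 1358 and 930.1 CPM in the E16.5 FP, E16.5 MM, E13.5 MM, E13.5 VM and E13.5 SM, and from Pdgfra, with 344, 783, 968, 1085 and 958 CPM. Twist2 had medians of 21.8, 134, 177, 267 and 13.3 CPM and Twist1 of 25.1, 145, 179, 198 and 56.4 CPM in the same tissues. Prrx1 was highest in the E13.5 SM, with 198, 207, 236, 289 and 673 CPM, and Pdgfrb had 88.6, 192, 199, 229 and 137 CPM. Of the 6 markers, 4 were called lower in the E16.5 FP than in the E16.5 MM, beside 7.34% of all genes. Markers of other cell types were present too. Adipocyte markers summed to 601 to 1289 CPM in the E16.5 FP, 70.5 to 167 in the E16.5 MM and at most 11.2 CPM in the other tissues, and 6 skeletal muscle markers to 2857 to 5436 CPM in 4 E16.5 FP pools, 486 CPM in E16.5 FP replicate 5 and at most 732 CPM elsewhere. Epithelial markers summed to 6.0 to 45.3 CPM in the E16.5 FP, 14.4 to 107 CPM in the E16.5 MM, 4.1 to 15.0 CPM in the E13.5 MM, 2.9 to 5.1 CPM in the E13.5 VM and 19.0 to 27.0 CPM in the E13.5 SM. The 4 smooth muscle and pericyte markers summed to 326 to 595 CPM in the E16.5 FP, 269.9 to 371 CPM in the E16.5 MM and 45.6 to 72.0 CPM over the 3 E13.5 tissues. Between the E16.5 FP and the E16.5 MM they went different ways. Medians were 186 and 33.7 CPM for Des, 129 and 203 for Rgs5, 58.7 and 45.8 for Myh11 and 57.1 and 55.3 for Cspg4. The 4 leukocyte markers summed to 204 to 275 CPM in the E16.5 FP, 201 to 248 in the E16.5 MM, 103 to 126 in the E13.5 MM, 91.5 to 112 in the E13.5 VM and 27.2 to 34.7 CPM in the E13.5 SM. All 4 smooth muscle and pericyte markers and all 4 leukocyte markers were called higher in the E16.5 MM than in the E13.5 MM. So were 4 of 4 adipocyte and 7 of 8 epithelial markers. Of 6 skeletal muscle markers, 4 were higher and 1 lower, while 4 of 6 neuron and 4 of 6 glial markers were lower. Of all genes, 12.6% were called higher and 7.16% lower in that comparison. Neuron markers summed to 258 to 329 CPM in the E13.5 SM and to at most 23.9 CPM elsewhere. In pooled tissue, fewer cells of a type and less RNA per cell cannot be told apart, and the part of these cells in the collagen results was not tested.

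Collagen transcripts took a larger share of the libraries in the E16.5 MM than in any other tissue. The 42 genes held 3.26 ± 0.23% of all counts in the E16.5 FP (3.07 to 3.62%), 5.57 ± 0.23% in the E16.5 MM (5.36 to 5.95%), 2.46 ± 0.28% in the E13.5 MM (2.07 to 2.78%), 2.13 ± 0.18% in the E13.5 VM (1.87 to 2.33%) and 1.71 ± 0.11% in the E13.5 SM (1.61 to 1.88%; SD, n = 5 each). The 2 E16.5 tissues did not overlap with each other or with any E13.5 tissue, whereas the E13.5 MM overlapped with the E13.5 VM, and the E13.5 VM overlapped with the E13.5 SM. Fibrillar collagens made up most of it, with 2.46, 4.37, 1.81, 1.59 and 1.28% of all counts in the E16.5 FP, E16.5 MM, E13.5 MM, E13.5 VM and E13.5 SM. Col3a1 alone held 1.41, 2.33, 1.02, 0.708 and 0.826% in the same order. Without Col1a1, Col1a2 and Col3a1, the remaining 39 genes still held 1.21, 1.74, 0.942, 0.815 and 0.619%, so the order of the tissues did not rest on these genes.

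**Figure D1:**
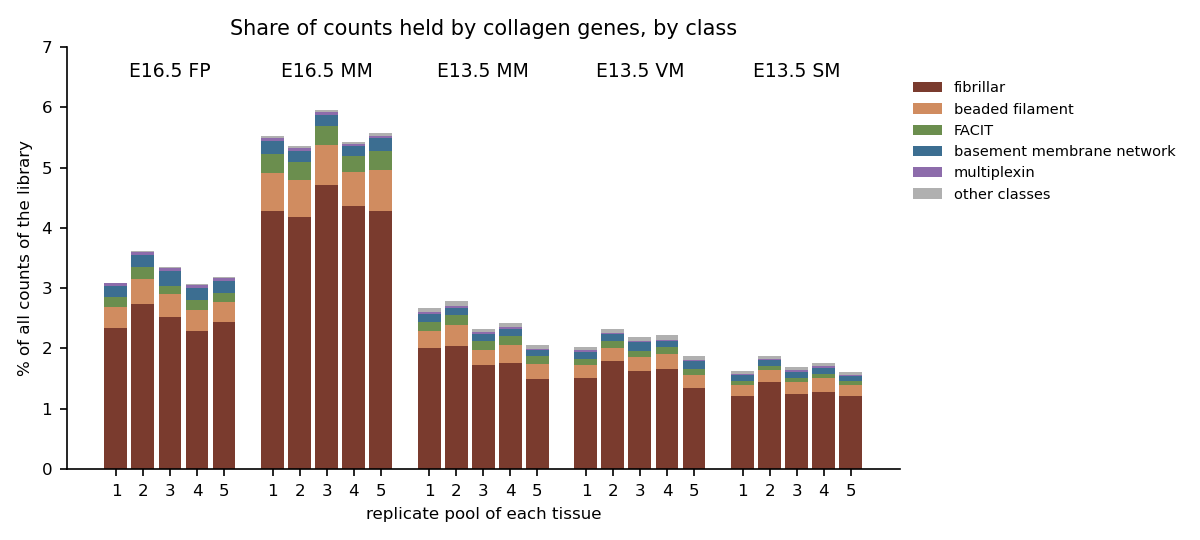
Share of all counts (percent, y axis) held by the collagen genes in each of the 25 pools, stacked by class, with the pools grouped by tissue. The 5 E16.5 MM pools reach 5.36 to 5.95%, above the 3.07 to 3.62% of the E16.5 FP pools, and the E13.5 pools lie between 1.61 and 2.78%.

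To rank the genes, CPM were divided by the length of each gene's longest coding transcript. Other differences between genes, such as GC content, were not corrected, so the ranks are approximate. By this measure Col3a1 was the most abundant collagen, with 2634, 4231, 1827, 1291 and 1409 CPM per kilobase in the E16.5 FP, E16.5 MM, E13.5 MM, E13.5 VM and E13.5 SM. Averaged over the 5 tissues, Col1a2 followed at 952 CPM per kilobase, then Col1a1 at 335, Col5a2 at 295, Col6a1 at 268 and Col6a2 at 170. At the other end, Col2a1 (0.254), Col4a4 (0.0688), Col4a3 (0.0374) and Col10a1 (0.0198 CPM per kilobase) were close to the floor of the data. Of the 41 tested genes, 10 had their highest mean in the E16.5 FP, 14 in the E16.5 MM, 6 in the E13.5 MM, 7 in the E13.5 VM and 4 in the E13.5 SM. The lowest mean lay in the E16.5 FP for 11 genes, in the E16.5 MM for 1, in the E13.5 MM for 6, in the E13.5 VM for 7 and in the E13.5 SM for 16.

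In all, 6 comparisons were made, and a gene was called where its p-value from edgeR's quasi-likelihood test, Benjamini-Hochberg adjusted over all 17657 genes tested, was under 0.05, its log2 fold change was at least 0.58 in size and its mean normalized count exceeded 50 in the higher tissue. A normalized count is a count scaled to the mean effective library size, and log2 fold changes are given ± their standard error. Against the E13.5 VM, the E13.5 MM had 8 collagen genes called higher and 5 called lower of 41 (19.5% and 12.2%), where 3.79% of all genes were called higher and 2.66% lower. The E16.5 MM against the E13.5 MM had 20 called higher and 8 lower (48.8% and 19.5%), against 12.6% and 7.16% of all genes. For the E16.5 FP against the E16.5 MM the counts were 6 higher and 19 lower (14.6% and 46.3%), against 6.78% and 7.34% of all genes. Collagen genes were thus called more often than genes at large in these comparisons. Calls were mostly upward in the E16.5 MM against the E13.5 MM and mostly downward in the E16.5 FP against the E16.5 MM. Genes at large were not matched to the collagens for expression level, although a call required a mean above 50 counts. As no sex is given at E13.5, stage and sex cannot be told apart in the E16.5 MM against the E13.5 MM.

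The remaining comparisons share the E13.5 SM pools and are given side by side. The E16.5 tissues differ from the E13.5 SM in both stage and organ, which cannot be told apart. The E13.5 MM had 15 collagen genes called higher and 8 lower (36.6% and 19.5%), where 14.5% and 15.6% of all genes were called. The E16.5 MM had 23 higher and 8 lower (56.1% and 19.5%), where 18.5% and 16.6% of all genes were called. In the E16.5 FP, 17 were higher and 13 lower (41.5% and 31.7%), where 20.2% and 19.3% of all genes were called. The share called higher thus stood above the background in each of them, while the share called lower was near it in the mammary tissues. Median log2 fold changes over the 41 genes were 0.16 for the E13.5 MM against the E13.5 VM, 0.71 for the E16.5 MM against the E13.5 MM, -0.56 for the E16.5 FP against the E16.5 MM, and against the E13.5 SM, 0.38 for the E13.5 MM, 0.76 for the E16.5 MM and 0.51 for the E16.5 FP. The medians of all genes tested lay between -0.01 and 0.03 in the same comparisons.

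The pools of both tissues did not overlap for 14, 27, 26, 25, 29 and 29 of the 41 genes in these comparisons (34.1%, 65.9%, 63.4%, 61.0%, 70.7% and 70.7%), taken in the order in which they were just given. Of all 17657 genes tested, 14.3%, 36.3%, 22.5%, 46.7%, 51.5% and 52.1% had pools that did not overlap. These genes, too, were not matched to the collagens for expression level. Only Col5a3, Col24a1, Col8a2 and Col13a1 were called in all 6 comparisons, and Col11a2, Col27a1, Col4a3 and Col4a4 in none. Library totals without further normalization moved the median of the genes above the count minimum by -0.13 on the log2 scale in the E16.5 FP against the E13.5 SM, which is under the fold required for a call. Of the 150 calls, 127 were kept under every alternative setting, and those lost are named with their genes.

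**Figure D2:**
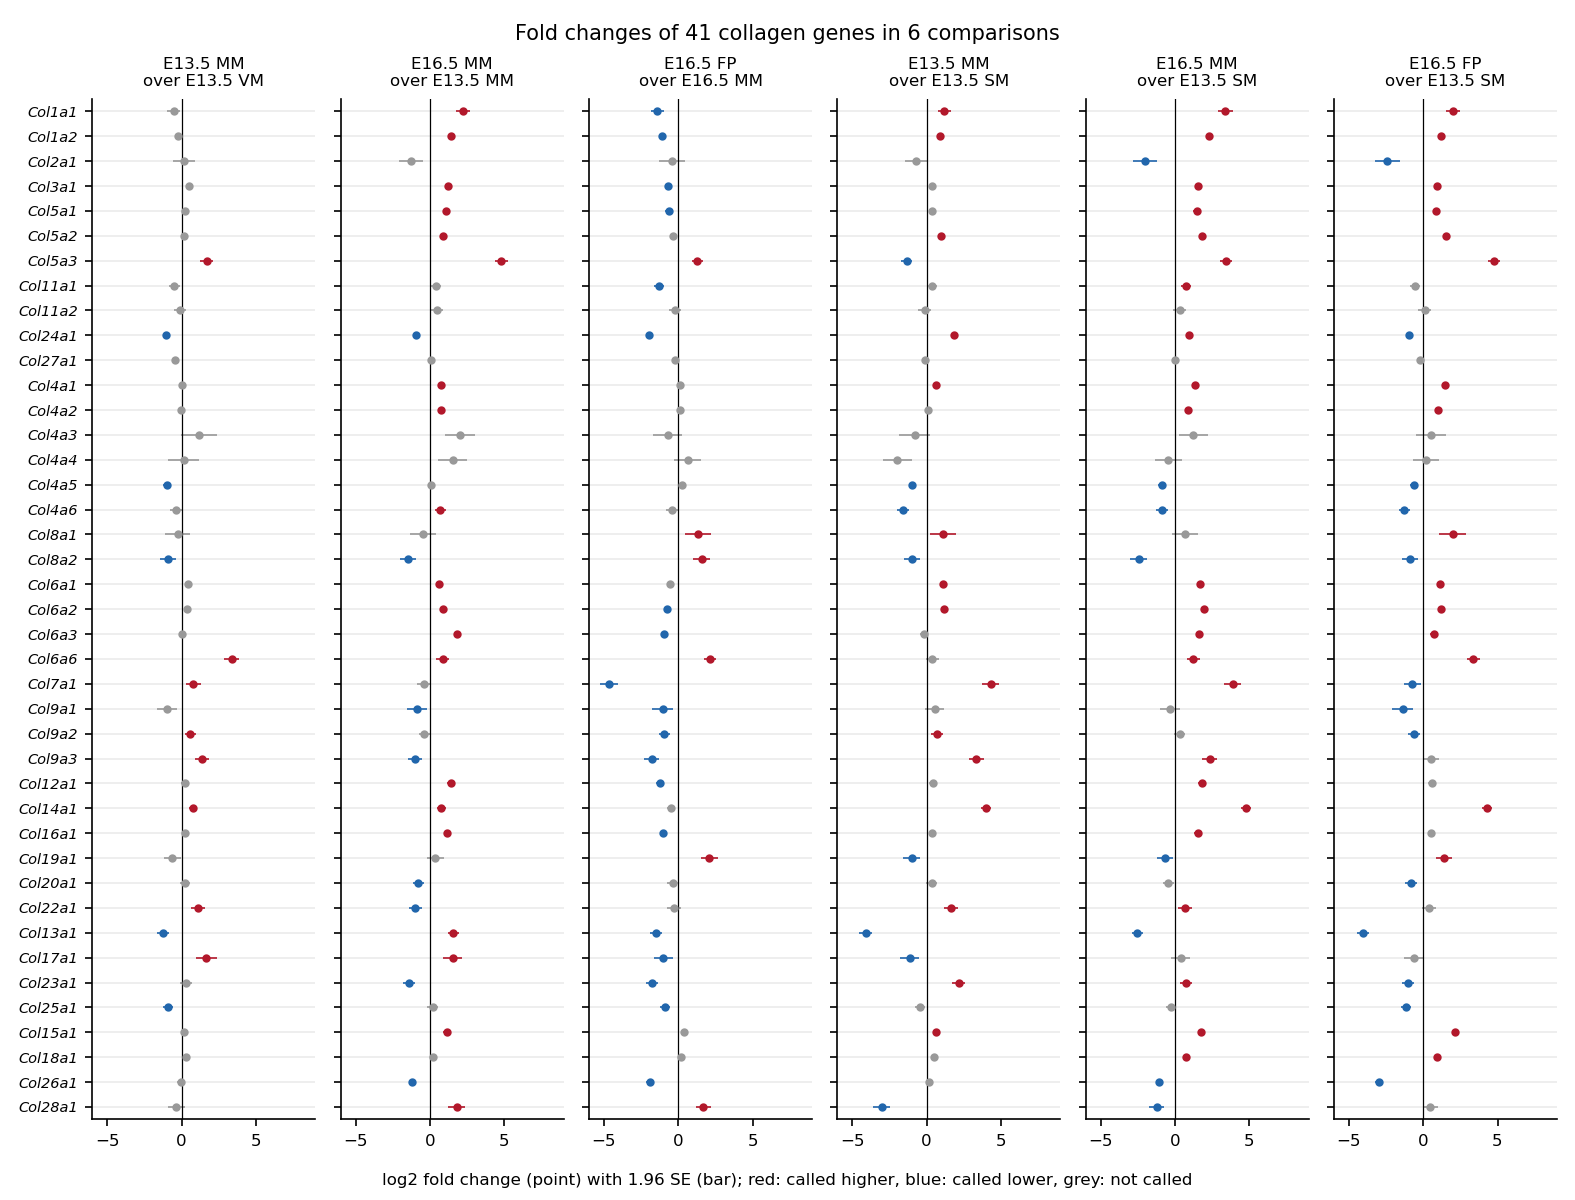
Log2 fold change (x axis) of the 41 tested collagen genes in each of the 6 comparisons, ordered by class down the page, with bars of 1.96 standard errors. Red points are called higher, blue points called lower and grey points not called, and most points lie right of 0 in the E16.5 MM against the E13.5 MM (20 called higher, 8 lower) and left of 0 in the E16.5 FP against the E16.5 MM (6 higher, 19 lower).

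**Figure D3:**
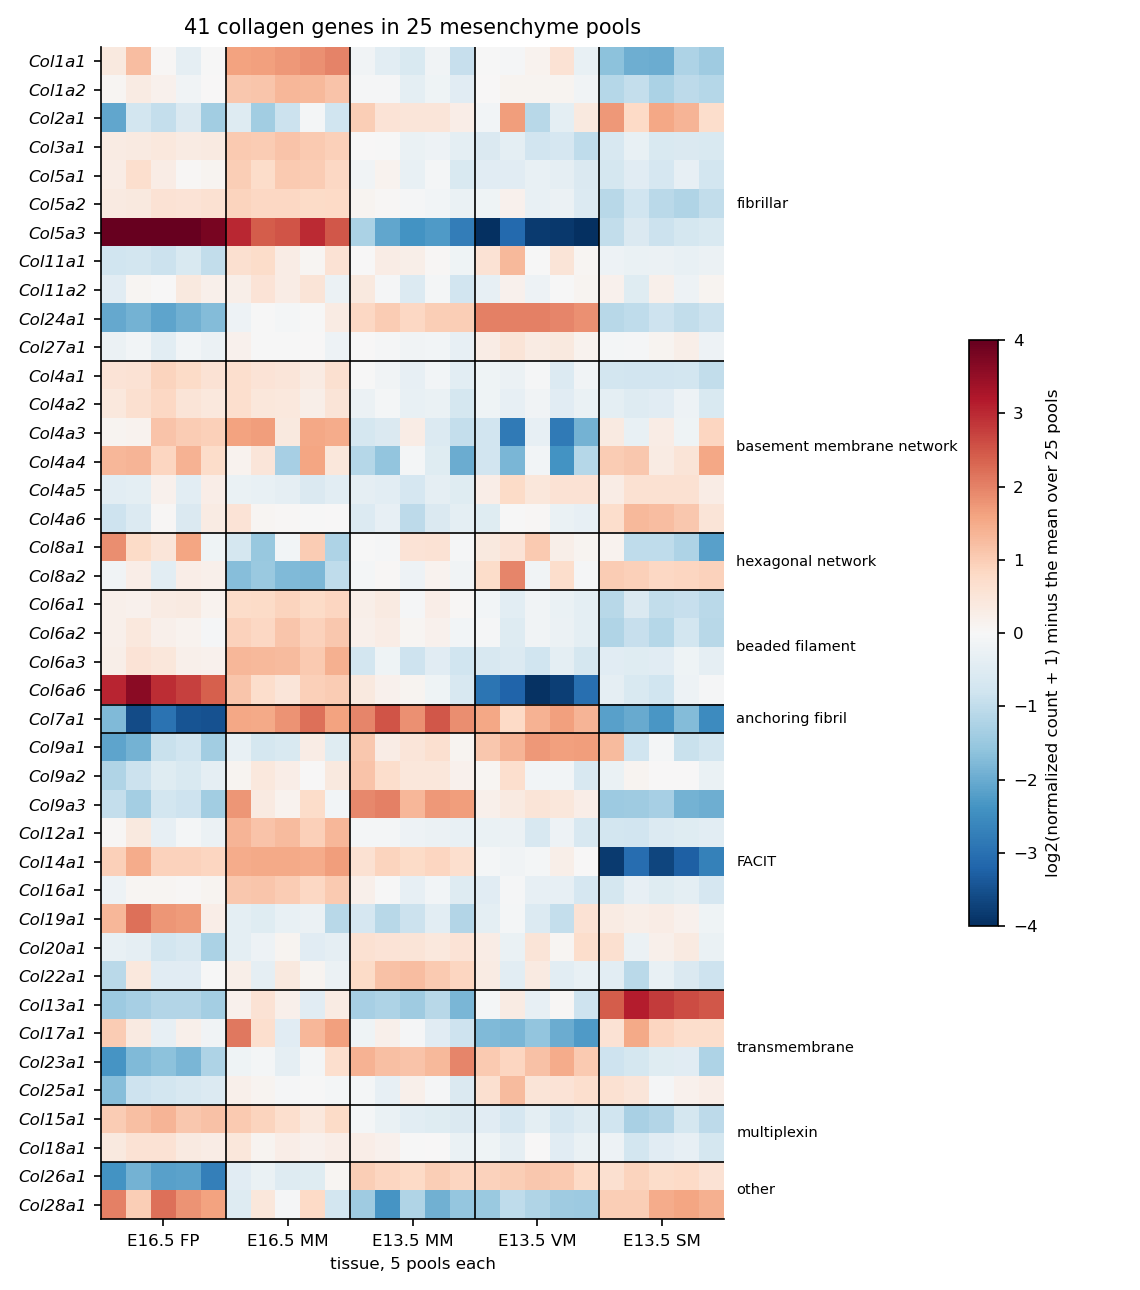
Heat map of the 41 tested collagen genes (rows, by class) in the 25 pools (columns, by tissue), where colour is log2(normalized count + 1) minus the gene's mean over the 25 pools. Pools of 1 tissue look alike, the high-count fibrillar and beaded filament genes are highest in the E16.5 MM columns, and Col5a3, Col6a6 and Col7a1 have the widest range of colours.

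Promoter sequence is shown for the most abundant member, Col3a1, and for 3 members with large differences between tissues, Col5a3, Col24a1 and Col7a1. RefSeq gave a start site for 33 of the 42 members, with 36 windows in all. The 150 bases before each start are from GRCm38.p6 and run 5′ to 3′ along the gene's strand. Capitals mark matches on either strand to the CCAAT box (CCAAT), to the GC box (its core GGGCGG) or to the TATA box (searched as TATAAA), 3 motifs whose matches do not overlap one another in these windows.
Col3a1, chr1:45311388-45311537, plus strand: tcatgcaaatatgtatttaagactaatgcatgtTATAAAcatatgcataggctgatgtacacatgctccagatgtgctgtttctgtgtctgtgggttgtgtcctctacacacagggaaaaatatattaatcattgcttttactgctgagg
Col5a3, chr9:20815068-20815217, minus strand: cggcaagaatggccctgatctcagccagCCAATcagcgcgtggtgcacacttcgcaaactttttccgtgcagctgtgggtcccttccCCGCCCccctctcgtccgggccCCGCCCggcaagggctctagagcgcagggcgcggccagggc
Col24a1, chr3:145292322-145292471, plus strand: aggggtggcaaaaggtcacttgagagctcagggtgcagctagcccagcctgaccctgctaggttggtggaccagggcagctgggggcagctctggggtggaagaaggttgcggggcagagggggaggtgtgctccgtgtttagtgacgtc
Col7a1, chr9:108953436-108953585, plus strand: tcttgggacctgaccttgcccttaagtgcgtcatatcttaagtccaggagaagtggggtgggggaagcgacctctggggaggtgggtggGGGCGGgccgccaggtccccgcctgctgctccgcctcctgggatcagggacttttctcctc
The Col3a1 window held TATAAA 117 bases before the start on the gene's strand. In the Col5a3 window, CCAAT began 122 bases before the start and GGGCGG lay 63 and 41 bases before it on the opposite strand. The Col7a1 window held GGGCGG 61 bases before the start, and none of the 3 motifs was found in these letters of the Col24a1 window. Over the 33 matched members, CCAAT was found in 8 (24.2%), GGGCGG in 17 (51.5%) and TATAAA in 4 (12.1%). Over the 27025 genes with a window of this length the shares were 27.7, 31.3 and 8.89%. These matches describe letters and are not binding sites. Col1a1, Col2a1, Col5a2, Col4a3, Col9a3, Col12a1, Col14a1, Col22a1 and Col26a1 had no entry in the promoter table.

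Among the 11 fibrillar collagens, the abundant interstitial chains rose in the E16.5 MM relative to the E13.5 MM and were lower in the E16.5 FP. Called higher and lower were 1 and 1 of the 11 in the E13.5 MM against the E13.5 VM, 6 and 1 in the E16.5 MM against the E13.5 MM, and 1 and 6 in the E16.5 FP against the E16.5 MM. Relative to the E13.5 SM they were 4 and 1 in the E13.5 MM, 8 and 1 in the E16.5 MM, and 6 and 2 in the E16.5 FP. Of all genes, 3.79% and 2.66%, 12.6% and 7.16%, 6.78% and 7.34%, 14.5% and 15.6%, 18.5% and 16.6%, and 20.2% and 19.3% were called in the same order. The fibrillar genes called lower relative to the E13.5 SM, 9.09%, 9.09% and 18.2% of the 11, were under the share of all genes. Col3a1 had 376239, 387372, 408806, 381523 and 391162 normalized counts in the E16.5 FP pools and 620253, 616321, 672357, 632346 and 583409 in the E16.5 MM pools. At E13.5, Col3a1 had 305768, 302062, 251538, 260504 and 229282 in the MM pools, 201916, 232302, 179792, 190214 and 149351 in the VM pools and 193293, 247231, 199449, 202150.0 and 198192 in the SM pools. Col3a1 forms type III collagen, which accompanies type I in skin and soft tissue. Every E16.5 MM pool lay above every E16.5 FP pool and every E16.5 FP pool above every E13.5 pool, while the E13.5 tissues overlapped. The log2 fold change of Col3a1 was 1.21 ± 0.10 in E16.5 MM against E13.5 MM (adjusted p = 4.04e-10) and -0.68 ± 0.10 in E16.5 FP against E16.5 MM (adjusted p = 5.46e-06). Against the E13.5 SM it was 1.59 ± 0.10 (adjusted p = 6.21e-13) in the E16.5 MM and 0.90 ± 0.10 (adjusted p = 1.42e-08) in the E16.5 FP. At E13.5 it was 0.50 ± 0.10 in E13.5 MM against E13.5 VM (adjusted p = 0.000652) and 0.38 ± 0.10 in E13.5 MM against E13.5 SM (adjusted p = 0.00199), both under the fold that a call required.

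Col1a1 had 50901, 90427, 39867, 30292 and 38340.3 normalized counts in the E16.5 FP pools and 118013, 120488, 128970.0, 137791 and 152011 in the E16.5 MM pools. At E13.5, Col1a1 had 34577, 28511, 25363, 34818 and 20244 in the MM pools, 38162, 37662, 42058, 57094 and 31340.5 in the VM pools and 12273, 9958, 9761, 16276 and 14254 in the SM pools. Col1a1 encodes the chain that supplies most of type I collagen. All E16.5 MM pools were above all others and all E13.5 SM pools below all others. Within the E16.5 FP, replicate 2 stood above the rest. Col1a1 had a log2 fold change of 2.20 ± 0.24 in E16.5 MM against E13.5 MM (adjusted p = 7.93e-08) and 3.39 ± 0.25 in E16.5 MM against E13.5 SM (adjusted p = 3.13e-11). It was -1.40 ± 0.23 in E16.5 FP against E16.5 MM (adjusted p = 4.48e-05) and 1.999 ± 0.24 in E16.5 FP against E13.5 SM (adjusted p = 8.44e-08), and without E16.5 FP replicate 2 the change against the E16.5 MM was -1.73 (adjusted p = 1.80e-07). The E13.5 MM was called higher than the E13.5 SM at 1.20 ± 0.23 (adjusted p = 9.79e-05), and was not called against the E13.5 VM at -0.52 ± 0.23 (adjusted p = 0.136). Col1a2, the partner chain, averaged 126323 ± 15781, 271030.0 ± 20659.5, 102075 ± 13478, 121735 ± 8940.2 and 54748 ± 4374 normalized counts in the E16.5 FP, E16.5 MM, E13.5 MM, E13.5 VM and E13.5 SM (SD, n = 5 each). It was called in the same comparisons and directions as Col1a1, with log2 fold changes of 1.41 in the E16.5 MM against the E13.5 MM and -1.10 in the E16.5 FP against the E16.5 MM.

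By tissue means, Col5a3, a chain of type V collagen, had the widest range of the 41 tested collagens. Col5a3 had 11016, 10778, 10812, 10675 and 9195 normalized counts in the E16.5 FP pools and 5285, 3485, 3792, 5198 and 3681 in the E16.5 MM pools. At E13.5, Col5a3 had 269, 155, 124, 136 and 94.6 in the MM pools, 37.7, 74.8, 45.5, 44.7 and 39.5 in the VM pools and 333, 436, 362, 403 and 426 in the SM pools. The tissues did not overlap and ran from the E16.5 FP over the E16.5 MM, E13.5 SM and E13.5 MM down to the E13.5 VM. Col5a3 rose in the E16.5 MM relative to the E13.5 MM by a log2 fold change of 4.79 ± 0.22 (adjusted p = 7.58e-14), which is 27.7-fold, and was higher still in the E16.5 FP at 1.29 ± 0.18 in E16.5 FP against E16.5 MM (adjusted p = 5.66e-06). Set against the E13.5 SM it was called lower in the E13.5 MM at -1.34 ± 0.20 (adjusted p = 3.61e-06) and higher in the E16.5 MM at 3.45 ± 0.20 (adjusted p = 4.13e-13) and the E16.5 FP at 4.74 ± 0.21 (adjusted p = 2.95e-15). At E13.5 the mammary pools also exceeded the ventral skin pools, by 1.68 ± 0.23 (adjusted p = 9.48e-06). Col5a3 is thus a fibrillar gene that was higher in the E16.5 FP than in the E16.5 MM, the reverse of Col1a1, Col1a2, Col3a1 and Col5a1.

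The other type V chains, which set fibril diameter, were more abundant and varied less. Col5a1 averaged 32533 ± 5754, 49997 ± 4638, 23399.8 ± 4477, 19649.6 ± 1402 and 17831 ± 2277 normalized counts, and Col5a2 66539 ± 5052, 83093 ± 2745, 45950.4 ± 4468, 41094 ± 7756 and 23095 ± 2446, in the E16.5 FP, E16.5 MM, E13.5 MM, E13.5 VM and E13.5 SM. Both rose in the E16.5 MM relative to the E13.5 MM, with log2 fold changes of 1.10 and 0.85, and both were called higher than the E13.5 SM in each E16.5 tissue. Col5a1 was called lower in the E16.5 FP than in the E16.5 MM at -0.62 ± 0.12 (adjusted p = 0.000243), a call that was lost when E16.5 FP replicate 4 or 5 was left out because the log2 fold change then came down to as little as -0.57. Col5a2 in that comparison had -0.32 ± 0.10 (adjusted p = 0.015) and was not called, and it was called higher in the E13.5 MM than in the E13.5 SM at 0.99.

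Col24a1 is a minor fibrillar collagen known from developing bone and cornea of the mouse. It was the only fibrillar gene called lower in the E16.5 MM than in the E13.5 MM. In the E16.5 FP against the E16.5 MM it was called lower together with Col1a1, Col1a2, Col3a1, Col5a1 and Col11a1. Col24a1 had 365, 409.8, 348, 401 and 460.0 normalized counts in the E16.5 FP pools and 1322, 1505, 1450.3, 1499 and 1899 in the E16.5 MM pools. At E13.5, Col24a1 had 2678, 3037, 2712, 2971 and 3012 in the MM pools, 6183, 6173, 6093, 5818 and 5382 in the VM pools and 708, 754, 861, 764 and 840.3 in the SM pools. No tissue overlapped with another, and the order ran from the E13.5 VM over the E13.5 MM, E16.5 MM and E13.5 SM to the E16.5 FP. For Col24a1 the log2 fold change was -1.04 ± 0.08 in E13.5 MM against E13.5 VM (adjusted p = 1.25e-09) and -0.91 ± 0.08 in E16.5 MM against E13.5 MM (adjusted p = 2.94e-09). It was -1.95 ± 0.09 in E16.5 FP against E16.5 MM (adjusted p = 8.39e-15), so that the E16.5 FP had 3.87-fold fewer counts than the E16.5 MM. Relative to the E13.5 SM, Col24a1 was higher in the E13.5 MM at 1.88 ± 0.09 (adjusted p = 1.72e-15) and in the E16.5 MM at 0.97 ± 0.08 (adjusted p = 2.98e-10), and lower in the E16.5 FP at -0.98 ± 0.09 (adjusted p = 2.68e-10).

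Of the cartilage-type fibrillar genes, Col11a1 averaged 1374 ± 134, 3324 ± 605, 2537 ± 328, 3544 ± 1414 and 2006 ± 41.5 normalized counts in the E16.5 FP, E16.5 MM, E13.5 MM, E13.5 VM and E13.5 SM, and was called lower in the E16.5 FP than in the E16.5 MM (-1.27) and higher in the E16.5 MM than in the E13.5 SM (0.73). Col11a2 (59.4 to 80.7) and Col27a1 (1686 to 2473 normalized counts as tissue means) were called in no comparison. For Col27a1 the adjusted p was 0.000432 in the E13.5 MM against the E13.5 VM, at a log2 fold change of -0.45 that was too small for a call.

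Col2a1 had 5.56, 15.9, 13.4, 17.6 and 9.52 normalized counts in the E16.5 FP pools and 18.4, 9.59, 14.4, 25.4 and 15.1 in the E16.5 MM pools. At E13.5, Col2a1 had 54.3, 39.2, 38.1, 37.6 and 32.7 in the MM pools, 24.8, 88.3, 11.8, 20.2 and 35.7 in the VM pools and 90.6, 47.0, 80.9, 71.1 and 44.7 in the SM pools. Col2a1 encodes the main cartilage collagen, and its highest value was 90.6 counts. The E13.5 SM pools lay above every E16.5 pool, while the E13.5 VM was scattered and overlapped with every other tissue. Col2a1 was called lower in the E16.5 MM at -2.003 ± 0.41 (adjusted p = 0.000142) and in the E16.5 FP at -2.42 ± 0.42 (adjusted p = 1.65e-05), both against the E13.5 SM. Both calls were lost when the count threshold was applied to the mean of both tissues. In the E16.5 MM against the E13.5 MM the log2 fold change of -1.27 ± 0.41 (adjusted p = 0.0125) was not called because neither mean exceeded 50 counts. Of the cartilage markers, Acan had medians of 1.84, 3.18, 0.180, 0.325 and 18.1 CPM in the E16.5 FP, E16.5 MM, E13.5 MM, E13.5 VM and E13.5 SM, while Matn1 and Snorc had medians of at most 0.199 CPM in each. Sox9, the transcription factor of cartilage, had medians of 40.1, 13.6, 3.14, 1.99 and 4.85 CPM in the same tissues, and Matn3 of 0.411, 0.408, 0.767, 0.495 and 0.0726 CPM. The 7 cartilage markers together gave 28.9 to 73.5, 25.9 to 33.4, 14.1 to 17.8, 9.97 to 22.2 and 26.3 to 45.3 CPM, and their part in the Col2a1 levels was not tested.

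The basement membrane network genes separated into 2 abundant chains that were higher at E16.5 and 2 rarer X-linked chains that were highest in the E13.5 SM or the E13.5 VM. Of the 6 genes, 3 were called higher in the E16.5 MM than in the E13.5 MM, and none was called in the E16.5 FP against the E16.5 MM. Of all genes, 12.6% were called higher in the first of these comparisons, and 6.78% higher and 7.34% lower in the second. Col4a1 had 36124, 36663, 45468, 41574 and 36882 normalized counts in the E16.5 FP pools and 39489.7, 35838, 34631, 31071 and 38528 in the E16.5 MM pools. At E13.5, Col4a1 had 24197, 22529, 19794, 22966 and 18547 in the MM pools, 22030.0, 20932, 23933, 16813 and 22099 in the VM pools and 14928, 14576, 14434, 14625 and 12484 in the SM pools. Col4a1 and Col4a2 together form the type IV trimer of nearly all basement membranes. Both E16.5 tissues overlapped with each other and lay above all E13.5 pools, the E13.5 MM and the E13.5 VM overlapped, and the E13.5 SM lay below both. The log2 fold change of Col4a1 was 0.73 ± 0.10 in E16.5 MM against E13.5 MM (adjusted p = 7.16e-07), 1.34 ± 0.10 in E16.5 MM against E13.5 SM (adjusted p = 6.61e-12) and 1.47 ± 0.10 in E16.5 FP against E13.5 SM (adjusted p = 9.39e-13). The call in the E13.5 MM against the E13.5 SM, at 0.60 ± 0.09 (adjusted p = 5.34e-06), sat at the fold required and was lost without E13.5 MM replicate 1 or 4 or E13.5 SM replicate 5 (log2 fold change down to 0.56). No difference was called between the E16.5 FP and the E16.5 MM at 0.13 ± 0.09 (adjusted p = 0.32) or between the E13.5 MM and the E13.5 VM at 0.03 ± 0.09 (adjusted p = 0.901).

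Col4a2 averaged 14669 ± 1726, 13599.8 ± 1447, 8035 ± 1179.6, 8187 ± 705 and 7362 ± 795 normalized counts in the E16.5 FP, E16.5 MM, E13.5 MM, E13.5 VM and E13.5 SM. It was called higher in the E16.5 MM than in the E13.5 MM (0.76) and higher than the E13.5 SM in the E16.5 MM (0.89) and the E16.5 FP (0.99). Col4a1 and Col4a2 are neighbours on chromosome 8 that are read in opposite directions. Their annotations overlap only from base 11312805 to base 11312826, while their transcripts are 6615 and 6450 bases long. Whether the counting used strand is not stated, so reads from that short stretch cannot be assigned to one of them.

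Col4a5 had 1203, 1222, 1794, 1188 and 1943 normalized counts in the E16.5 FP pools and 1338, 1299, 1256, 1065 and 1199 in the E16.5 MM pools. At E13.5, Col4a5 had 1236, 1191, 1010.2, 1239 and 1139 in the MM pools, 1915, 2702, 2208, 2367 and 2409.7 in the VM pools and 1974, 2426, 2452, 2449.9 and 1976 in the SM pools. Col4a5 and Col4a6 are neighbours on the X chromosome and supply chains of specialised basement membranes. The E13.5 VM and E13.5 SM pools overlapped with each other and lay above all E13.5 MM and E16.5 MM pools, while E16.5 FP replicate 5 lay within the range of the E13.5 VM. Col4a5 was lower in the E13.5 MM than in the E13.5 VM at -0.996 ± 0.12 (adjusted p = 1.67e-06) and than in the E13.5 SM at -0.96 ± 0.12 (adjusted p = 3.35e-07). Set against the same E13.5 SM pools, the E16.5 MM had -0.87 ± 0.12 (adjusted p = 1.16e-06) and the E16.5 FP -0.62 ± 0.12 (adjusted p = 9.61e-05). The E16.5 FP call was lost without E16.5 FP replicate 1, 2 or 4 or E13.5 SM replicate 3, with a log2 fold change as small as -0.55. Col4a6 had 96.7, 117, 177, 114 and 217 normalized counts in the E16.5 FP pools and 252, 183, 178, 171 and 173 in the E16.5 MM pools. At E13.5, Col4a6 had 118, 136, 83.0, 116 and 133 in the MM pools, 123, 170.4, 177, 143 and 138 in the VM pools and 282, 428, 410.3, 366 and 249 in the SM pools. For Col4a6 the E13.5 SM was highest, and E16.5 MM replicate 1 was the only pool of another tissue that reached its range. Its log2 fold change was -1.57 ± 0.20 in E13.5 MM against E13.5 SM (adjusted p = 2.54e-07), -0.86 ± 0.20 in E16.5 MM against E13.5 SM (adjusted p = 0.000489) and -1.27 ± 0.20 in E16.5 FP against E13.5 SM (adjusted p = 4.12e-06). Col4a6 was also called higher in the E16.5 MM than in the E13.5 MM at 0.71 ± 0.20 (adjusted p = 0.00494). Col4a3 and Col4a4, chains of the kidney filter's basement membrane, averaged at most 17.9 and 31.7 normalized counts in any tissue and were called nowhere. Both thus stayed under the mean of 50 counts that a call required.

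All 4 beaded filament genes were called higher in the E16.5 MM than in the E13.5 MM and higher than the E13.5 SM in both E16.5 tissues. Of all genes, 12.6% were called higher in the first of these comparisons. Against the E13.5 SM, 18.5% were called higher in the E16.5 MM and 20.2% in the E16.5 FP. Col6a1 had 31229, 30061, 33572, 34199 and 29929.8 normalized counts in the E16.5 FP pools and 45163, 45703, 49418, 45482 and 48463 in the E16.5 MM pools. At E13.5, Col6a1 had 31483, 34158, 26318, 32452 and 27840.1 in the MM pools, 24732, 19907, 24213, 22144 and 20468 in the VM pools and 12469.9, 17997, 13613, 14188 and 12817 in the SM pools. Col6a1 encodes one of the obligatory chains of type VI collagen, which surrounds cells in most connective tissues. The E16.5 MM lay above all other pools, the E16.5 FP and E13.5 MM overlapped, and the E13.5 VM and then the E13.5 SM lay below them without overlap. Col6a1 had a log2 fold change of 1.10 ± 0.09 in E13.5 MM against E13.5 SM (adjusted p = 1.75e-10), 1.72 ± 0.09 in E16.5 MM against E13.5 SM (adjusted p = 3.25e-14) and 1.16 ± 0.09 in E16.5 FP against E13.5 SM (adjusted p = 3.89e-11). It was 0.62 ± 0.09 in E16.5 MM against E13.5 MM (adjusted p = 4.61e-06), a call that was lost without E13.5 MM replicate 3 (log2 fold change 0.57). The E16.5 FP against the E16.5 MM at -0.56 ± 0.09 (adjusted p = 2.83e-05) and the E13.5 MM against the E13.5 VM at 0.45 ± 0.09 (adjusted p = 0.000896) missed the fold required although no pools overlapped.

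Col6a3 had 40247, 49373, 46923, 38913 and 38819 normalized counts in the E16.5 FP pools and 85256, 83196, 82454, 71204 and 90633 in the E16.5 MM pools. At E13.5, Col6a3 had 20408, 30299, 19159, 24849 and 19556 in the MM pools, 21882, 23447, 19465, 26260.5 and 20948 in the VM pools and 25132, 24618, 24824, 30209 and 26625 in the SM pools. Col6a3, the long chain of the type VI trimer, did not separate the 3 E13.5 tissues but was higher in both E16.5 tissues, most of all in the E16.5 MM. The change was 1.85 ± 0.12 in E16.5 MM against E13.5 MM (adjusted p = 3.92e-12) and -0.95 ± 0.11 in E16.5 FP against E16.5 MM (adjusted p = 3.37e-07). Against the E13.5 SM it was 1.65 ± 0.12 (adjusted p = 4.07e-12) in the E16.5 MM and 0.71 ± 0.11 (adjusted p = 5.65e-06) in the E16.5 FP, and the second of these calls was lost with library totals in place of the normalization factors. Col6a2 averaged 21647 ± 2499, 37373 ± 2973, 20779 ± 2065, 15936 ± 2088 and 9397 ± 1255 normalized counts in the E16.5 FP, E16.5 MM, E13.5 MM, E13.5 VM and E13.5 SM, and its log2 fold changes were 0.85 in the E16.5 MM against the E13.5 MM and -0.79 in the E16.5 FP against the E16.5 MM, both called.

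Col6a6 had 4938, 7263, 4585, 3992 and 3105 normalized counts in the E16.5 FP pools and 1276, 979, 837, 1146 and 1197 in the E16.5 MM pools. At E13.5, Col6a6 had 777, 677, 642, 528 and 384 in the MM pools, 77.5, 63.4, 37.7, 42.9 and 73.3 in the VM pools and 468, 390.2, 341, 517 and 579 in the SM pools. Col6a6 encodes an alternative chain that can take the place of Col6a3, and it separated the tissues more than any other beaded filament gene. The E16.5 FP lay above and the E13.5 VM below every other pool, while the E13.5 MM and E13.5 SM overlapped. Col6a6 gave the largest collagen change between the E13.5 MM and the E13.5 VM, at 3.36 ± 0.25 (adjusted p = 1.43e-09), or 10.3-fold. It was also the largest rise in the E16.5 FP relative to the E16.5 MM, at 2.14 ± 0.22 (adjusted p = 5.71e-08). Further calls were 0.86 ± 0.22 in E16.5 MM against E13.5 MM (adjusted p = 0.00223), 1.24 ± 0.22 in E16.5 MM against E13.5 SM (adjusted p = 2.92e-05) and 3.38 ± 0.23 in E16.5 FP against E13.5 SM (adjusted p = 8.88e-12). Within the E16.5 FP, replicate 2 had both the highest Col6a6 value and the highest muscle marker sum (5436 CPM), and replicate 5 the lowest of both (3105 counts and 486 CPM). The part of muscle in the Col6a6 levels was not tested.

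Col7a1, the only chain of anchoring fibrils, was high in the E16.5 MM, E13.5 MM and E13.5 VM and low in the E16.5 FP and E13.5 SM. Col7a1 had 257, 72.4, 113, 79.8 and 78.3 normalized counts in the E16.5 FP pools and 2578, 2527, 3095, 4089 and 2689 in the E16.5 MM pools. At E13.5, Col7a1 had 3399.5, 5025, 3173, 4942 and 3238 in the MM pools, 2594, 1529, 2309, 2747 and 2285 in the VM pools and 194, 216, 173, 264 and 155 in the SM pools. The pools of the E16.5 MM, the E13.5 MM and the E13.5 VM (at least 1529 counts) lay above all E16.5 FP and E13.5 SM pools (at most 264 counts). Col7a1 had a log2 fold change of -4.65 ± 0.30 in E16.5 FP against E16.5 MM (adjusted p = 5.57e-11), a 25.1-fold lower mean and the largest change of any collagen in that comparison. Set against the E13.5 SM, Col7a1 was higher by 4.30 ± 0.29 (adjusted p = 2.47e-11) in the E13.5 MM and 3.90 ± 0.29 (adjusted p = 7.58e-11) in the E16.5 MM. The E16.5 MM and E13.5 MM overlapped, and the log2 fold change of -0.40 ± 0.25 (adjusted p = 0.192) was not called.

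The smaller Col7a1 differences depended on single pools. The E13.5 MM against the E13.5 VM had 0.79 ± 0.25 (adjusted p = 0.0359), with no overlap, and the call was lost without E13.5 MM replicate 2 or 4 or E13.5 VM replicate 2, 3 or 5 (adjusted p up to 0.0974). The E16.5 FP against the E13.5 SM had -0.75 ± 0.29 (adjusted p = 0.0264). Without E16.5 FP replicate 1, which had 257 counts, this became -1.24 (adjusted p = 4.87e-05), and it was lost without any of E16.5 FP replicates 2 to 5 or E13.5 SM replicate 4 (adjusted p up to 0.0823). E16.5 FP replicate 1 also had the highest epithelial marker sum of its tissue, 45.3 CPM against 6.0 to 11.6 CPM in the other E16.5 FP pools. In the E16.5 MM, the pool with the highest sum, replicate 1 (107 CPM), had 2578 Col7a1 counts. Replicate 3, which had the lowest sum (14.4 CPM), had 3095. The part of residual epithelium in the Col7a1 levels was not tested.

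**Figure D4:**
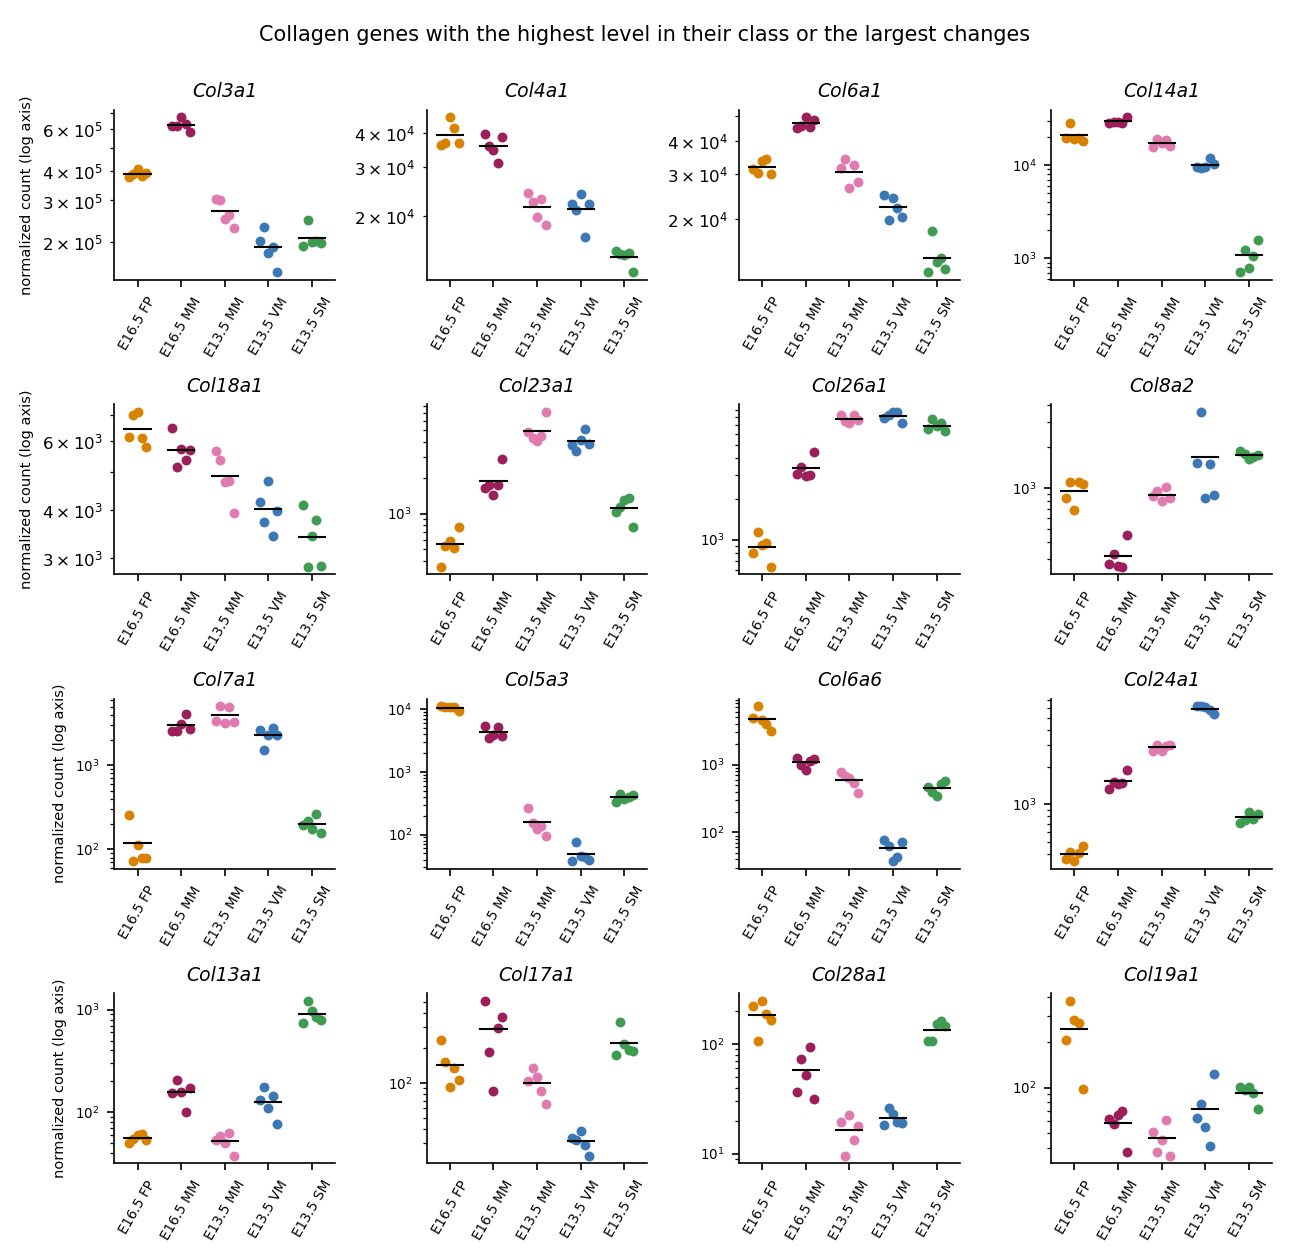
Normalized counts (log axis) of 16 collagen genes in each pool, by tissue, with a black line at each tissue's mean. Col5a3 has tissue means of 10495 in the E16.5 FP and 48.4 in the E13.5 VM, with no overlap between tissues, and Col7a1 is high in the E16.5 MM, E13.5 MM and E13.5 VM (2293 to 3955) and low in the E16.5 FP (120) and E13.5 SM (200.3).

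Of the 9 FACIT genes, 3 were called higher and 4 lower in the E16.5 MM against the E13.5 MM, and the 3 that were higher, Col12a1, Col14a1 and Col16a1, were the most abundant ones. Of all genes, 12.6% were called higher and 7.16% lower in that comparison. Col14a1 had 19698, 28157, 19202, 19398 and 18295 normalized counts in the E16.5 FP pools and 28403, 29117, 29010.3, 28319 and 32379.5 in the E16.5 MM pools. At E13.5, Col14a1 had 15565, 18948, 17179, 18364 and 16187 in the MM pools, 9603, 9206, 9617, 11869 and 10218 in the VM pools and 711, 1236, 789.7, 1067 and 1570.2 in the SM pools. Col14a1 encodes a fibril-surface collagen of skin and tendon. The order ran from the E16.5 MM over the E16.5 FP and E13.5 MM, which overlapped, to the E13.5 VM and finally the E13.5 SM, whose highest pool had 1570.2 counts. Relative to the E13.5 SM, the log2 fold change was 4.005 ± 0.17 (adjusted p = 5.77e-16) in the E13.5 MM, 4.78 ± 0.18 (adjusted p = 2.71e-17) in the E16.5 MM and 4.29 ± 0.17 (adjusted p = 1.25e-16) in the E16.5 FP, or 16.1, 27.4 and 19.5-fold. Col14a1 was also called in the E13.5 MM against the E13.5 VM at 0.77 ± 0.15 (adjusted p = 0.000622) and in the E16.5 MM against the E13.5 MM at 0.77 ± 0.15 (adjusted p = 0.000168). In the E16.5 FP against the E16.5 MM it had -0.49 ± 0.15 (adjusted p = 0.0127) and was not called.

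Col12a1 and Col16a1, fibril-associated collagens of dense and loose connective tissue, stood out in the E16.5 MM. Col12a1 averaged 15147 ± 3059, 35638 ± 3927, 13647 ± 966, 11803 ± 1698 and 10248 ± 1087 normalized counts, and Col16a1 7651 ± 628, 15289 ± 1113, 6859 ± 1269, 5872 ± 942 and 5267 ± 604, in the E16.5 FP, E16.5 MM, E13.5 MM, E13.5 VM and E13.5 SM. Both were called higher in the E16.5 MM than in the E13.5 MM (log2 fold changes 1.38 and 1.16) and than in the E13.5 SM (1.80 and 1.54), and lower in the E16.5 FP than in the E16.5 MM (-1.23 and -0.999). Neither was called in the E13.5 MM against the E13.5 VM or the E13.5 SM.

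Type IX collagen, a FACIT first known from cartilage, has 3 chains with unlike patterns here. Col9a3 had 106, 79.4, 122, 115 and 78.3 normalized counts in the E16.5 FP pools and 695, 263, 226, 340.1 and 189 in the E16.5 MM pools. At E13.5, Col9a3 had 778, 841, 512, 693 and 652 in the MM pools, 237, 262, 294, 283 and 249 in the VM pools and 74.5, 75.7, 81.9, 54.9 and 52.7 in the SM pools. Col9a3 was highest in the E13.5 MM and lowest in the E13.5 SM, and the E13.5 MM overlapped only with E16.5 MM replicate 1. For Col9a3 the log2 fold change was 1.39 ± 0.24 in E13.5 MM against E13.5 VM (adjusted p = 0.000187), 3.35 ± 0.27 in E13.5 MM against E13.5 SM (adjusted p = 1.25e-10) and 2.33 ± 0.26 in E16.5 MM against E13.5 SM (adjusted p = 3.81e-08). It was -1.02 ± 0.24 in E16.5 MM against E13.5 MM (adjusted p = 0.00121) and -1.78 ± 0.26 in E16.5 FP against E16.5 MM (adjusted p = 6.56e-06). E16.5 MM replicate 1 had 695 counts, against 189 to 340.1 in the other E16.5 MM pools. Without it, the change in the E16.5 MM against the E13.5 MM was -1.45 (adjusted p = 3.79e-07). Replicate 1 also had the highest epithelial marker sum of all pools (107 CPM), whereas replicate 5, with 93.5 CPM, had the lowest Col9a3 of the E16.5 MM. The part of residual epithelium in the Col9a3 result was not tested.

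Col9a1 had 17.8, 20.8, 43.0, 45.6 and 29.6 normalized counts in the E16.5 FP pools and 65.4, 49.2, 51.7, 98.3 and 57.4 in the E16.5 MM pools. At E13.5, Col9a1 had 169, 97.6, 111, 126 and 86.6 in the MM pools, 169, 209, 269, 249 and 257 in the VM pools and 195, 46.0, 75.1, 42.3 and 47.7 in the SM pools. For Col9a1 the E13.5 VM lay above all other pools but E13.5 SM replicate 1, by under 1 count for the replicates 1 of the E13.5 VM and E13.5 MM, and the E16.5 FP lay below every E16.5 MM, E13.5 MM and E13.5 VM pool. Col9a1 was called lower in the E16.5 FP than in the E13.5 SM at -1.38 ± 0.36 (adjusted p = 0.00169), which became -0.76 (adjusted p = 0.0187) without E13.5 SM replicate 1. It was called lower in the E16.5 MM than in the E13.5 MM at -0.87 ± 0.35 (adjusted p = 0.04), lost without E16.5 MM replicate 1, 2, 3 or 5 or E13.5 MM replicate 1 or 4 (adjusted p up to 0.109). The E16.5 FP against the E16.5 MM had -1.04 ± 0.37 (adjusted p = 0.0298), lost without E16.5 FP replicate 1 or 2 or E16.5 MM replicate 4 (adjusted p up to 0.0855). In the E13.5 MM against the E13.5 VM it had -0.97 ± 0.33 (adjusted p = 0.0506) and just missed a call.

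Col9a2 averaged 395 ± 85.8, 753 ± 93.2, 977 ± 268, 653 ± 223 and 601 ± 68.8 normalized counts in the E16.5 FP, E16.5 MM, E13.5 MM, E13.5 VM and E13.5 SM. It was called lower in the E16.5 FP than in the E16.5 MM at -0.93 ± 0.20 (adjusted p = 0.000612). The call in the E13.5 MM against the E13.5 VM, at 0.58 ± 0.19 (adjusted p = 0.0425), sat at the threshold and was lost when any of 6 libraries was left out, E13.5 MM replicates 1 and 2 and E13.5 VM replicates 1, 3, 4 and 5 (adjusted p up to 0.144). Against the E13.5 SM it was called in the E13.5 MM at 0.70 ± 0.19 (adjusted p = 0.00331), lost without E13.5 MM replicate 1 (log2 fold change 0.53), and in the E16.5 FP at -0.61 ± 0.20 (adjusted p = 0.00859), lost without E16.5 FP replicate 1 or 2 or E13.5 SM replicate 2 or 3 (log2 fold change as small as -0.50).

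Col19a1 had 207, 376, 282, 268 and 98.3 normalized counts in the E16.5 FP pools and 62.0, 57.6, 66.1, 69.4 and 37.3 in the E16.5 MM pools. At E13.5, Col19a1 had 50.9, 37.3, 44.9, 61.1 and 35.4 in the MM pools, 62.4, 77.9, 55.0, 41.2 and 122 in the VM pools and 101, 95.9, 100.2, 91.8 and 71.6 in the SM pools. Col19a1, described in embryonic muscle of the mouse, was highest in the E16.5 FP, where replicate 5 fell within the ranges of the E13.5 VM and the E13.5 SM and the other 4 pools lay above all others. Replicate 5 was the E16.5 FP pool with the fewest muscle marker counts (486 CPM) and replicate 2 that with the most (5436 CPM), and the part of muscle in this result was not tested. The log2 fold change of Col19a1 was 2.07 ± 0.29 in E16.5 FP against E16.5 MM (adjusted p = 3.17e-06) and 1.42 ± 0.28 in E16.5 FP against E13.5 SM (adjusted p = 8.11e-05). It was lower in the E13.5 MM than in the E13.5 SM at -1.002 ± 0.29 (adjusted p = 0.00405). The E16.5 MM against the E13.5 SM gave -0.66 ± 0.29 (adjusted p = 0.0449), a call that was lost when any of 9 of the 10 libraries was left out, all but E13.5 SM replicate 5 (adjusted p up to 0.128).

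Col20a1 and Col22a1 were the 2 other rare FACITs, and both were highest in the E13.5 MM. Col22a1, known from tissue junctions such as that of muscle and tendon, averaged 97.7 ± 38.3, 119.7 ± 25.7, 236 ± 32.3, 111 ± 31.6 and 75.1 ± 16.2 normalized counts in the E16.5 FP, E16.5 MM, E13.5 MM, E13.5 VM and E13.5 SM. It was called higher in the E13.5 MM than in the E13.5 VM (1.09) and the E13.5 SM (1.65), and lower in the E16.5 MM than in the E13.5 MM (-0.98). It was also called higher in the E16.5 MM than in the E13.5 SM at 0.67 ± 0.23 (adjusted p = 0.0136), and this call was lost without E16.5 MM replicate 3 or E13.5 SM replicate 2 (log2 fold change just under the 0.58 required). Col20a1 averaged 106 ± 25.7, 139 ± 22.9, 238 ± 10.2, 203 ± 50.5 and 187 ± 50.2 normalized counts in the same order, and was called lower in the E16.5 MM than in the E13.5 MM (-0.78) and in the E16.5 FP than in the E13.5 SM (-0.82).

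All 4 transmembrane collagens were called lower in the E16.5 FP than in the E16.5 MM, each at its own level. Of all genes, 7.34% were called lower in that comparison. Col23a1 had 358, 533, 586, 510.1 and 772 normalized counts in the E16.5 FP pools and 1639.7, 1723, 1442, 1736 and 2890.2 in the E16.5 MM pools. At E13.5, Col23a1 had 4854, 4266, 4034, 4464 and 7127 in the MM pools, 3780.4, 3327, 4114, 5156 and 3801 in the VM pools and 1023, 1124, 1301, 1342 and 774 in the SM pools. Col23a1, a membrane-bound collagen that can be shed from the cell surface, was highest in the E13.5 MM and the E13.5 VM, which overlapped, and lay lower in the E16.5 MM, the E13.5 SM and, below all of them, the E16.5 FP. Its log2 fold change was -1.39 ± 0.21 in E16.5 MM against E13.5 MM (adjusted p = 8.02e-06) and -1.77 ± 0.21 in E16.5 FP against E16.5 MM (adjusted p = 6.41e-07). Set against the E13.5 SM it was higher in the E13.5 MM at 2.15 ± 0.21 (adjusted p = 7.99e-09) and lower in the E16.5 FP at -1.01 ± 0.21 (adjusted p = 0.000189). The E16.5 MM was called higher than the E13.5 SM at 0.76 ± 0.21 (adjusted p = 0.00252), and the call was lost without E16.5 MM replicate 5 (log2 fold change 0.56).

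Col13a1 had 50.03, 54.6, 60.5, 61.2 and 53.9 normalized counts in the E16.5 FP pools and 156, 206, 159, 101 and 172 in the E16.5 MM pools. At E13.5, Col13a1 had 54.3, 58.4, 50.8, 63.5 and 38.0 in the MM pools, 132, 176, 109.9, 143 and 77.0 in the VM pools and 744, 1217, 971, 856 and 788 in the SM pools. Col13a1, a plasma membrane collagen needed at the neuromuscular junction, was highest in the E13.5 SM, where every pool had at least 744 counts, against at most 206 in every other pool. The largest decreases of all collagens relative to the E13.5 SM were those of Col13a1, at -4.11 ± 0.21 (adjusted p = 1.02e-14) in the E13.5 MM, -2.53 ± 0.19 (adjusted p = 1.56e-11) in the E16.5 MM and -4.03 ± 0.21 (adjusted p = 8.67e-15) in the E16.5 FP. Among the other tissues, it was lower in the E13.5 MM than in the E13.5 VM at -1.26 ± 0.20 (adjusted p = 4.18e-05) and higher in the E16.5 MM than in the E13.5 MM at 1.58 ± 0.20 (adjusted p = 4.49e-07). The E16.5 FP against the E16.5 MM had -1.50 ± 0.20 (adjusted p = 1.59e-06). Of the 6 neuron markers, 5 were called lower than in the E13.5 SM in each of the E13.5 MM, the E16.5 MM and the E16.5 FP. In the same order, 15.6%, 16.6% and 19.3% of all genes were called lower. The part of neurons in the Col13a1 result was not tested.

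Col17a1 had 235, 149.8, 92.7, 135 and 105 normalized counts in the E16.5 FP pools and 509, 185, 84.2, 295 and 369 in the E16.5 MM pools. At E13.5, Col17a1 had 104, 134, 112, 85.4 and 65.4 in the MM pools, 33.4, 32.2, 38.5, 28.9 and 23.5 in the VM pools and 175, 333, 214, 193 and 189 in the SM pools. Col17a1 belongs to the hemidesmosomes with which basal epithelial cells hold on to the basement membrane. The E13.5 VM lay below all other pools, and the E16.5 MM pools spanned the ranges of the E16.5 FP and E13.5 SM. In the E16.5 MM the pools with the highest Col17a1, replicates 1, 5 and 4, were also those with the highest epithelial marker sums (107, 93.5 and 58.7 CPM, against 27.1 and 14.4 CPM in replicates 2 and 3), and in the E16.5 FP replicate 1 was highest in both. The part of residual epithelium in the result was not tested. Col17a1 had a log2 fold change of 1.67 ± 0.36 in E13.5 MM against E13.5 VM (adjusted p = 0.00165), 1.53 ± 0.33 in E16.5 MM against E13.5 MM (adjusted p = 0.000541) and -1.14 ± 0.33 in E13.5 MM against E13.5 SM (adjusted p = 0.0046). In the E16.5 FP against the E16.5 MM it was -1.01 ± 0.33 (adjusted p = 0.0187), and this call was lost without E16.5 FP replicate 3 or E16.5 MM replicate 1 or 5 (adjusted p up to 0.0970).

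Col25a1, expressed by neurons and by developing muscle, averaged 432 ± 113, 795 ± 66.1, 704 ± 145, 1311 ± 318 and 962 ± 174 normalized counts in the E16.5 FP, E16.5 MM, E13.5 MM, E13.5 VM and E13.5 SM. It was lower in the E13.5 MM than in the E13.5 VM (-0.90) and lower in the E16.5 FP than in the E16.5 MM (-0.88) and the E13.5 SM (-1.16). The part of the muscle and neuron markers given above in the Col25a1 levels was not tested.

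The hexagonal network genes form the open lattices made by endothelium and, in growth cartilage, by hypertrophic chondrocytes. Col8a2 had 836, 1095, 687, 1094 and 1058 normalized counts in the E16.5 FP pools and 279, 327, 269, 265 and 452 in the E16.5 MM pools. At E13.5, Col8a2 had 869, 939.8, 803, 1010.0 and 835 in the MM pools, 1521, 3581, 835, 1499 and 888 in the VM pools and 1849.6, 1769, 1619.9, 1677 and 1727 in the SM pools. Col8a2 was lowest in the E16.5 MM without overlap and highest in the E13.5 SM, except for E13.5 VM replicate 2. For Col8a2 the log2 fold change was -1.48 ± 0.29 in E16.5 MM against E13.5 MM (adjusted p = 0.000184), 1.58 ± 0.29 in E16.5 FP against E16.5 MM (adjusted p = 0.000138) and -2.44 ± 0.29 in E16.5 MM against E13.5 SM (adjusted p = 1.78e-07). It was -0.95 ± 0.27 in E13.5 MM against E13.5 SM (adjusted p = 0.00463) and -0.86 ± 0.27 in E16.5 FP against E13.5 SM (adjusted p = 0.00819). The E13.5 MM against the E13.5 VM gave -0.90 ± 0.27 (adjusted p = 0.027), which shrank to -0.41 (adjusted p = 0.136) without E13.5 VM replicate 2 and also lost its call without E13.5 MM replicate 1, 3 or 5 (adjusted p from 0.0593).

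Col8a1, the partner of Col8a2, averaged 248 ± 135, 100.4 ± 79.7, 136 ± 32.2, 164 ± 45.4 and 62.9 ± 38.4 normalized counts in the E16.5 FP, E16.5 MM, E13.5 MM, E13.5 VM and E13.5 SM, with wide overlap. It was called higher in the E16.5 FP than in the E13.5 SM at 1.97 ± 0.45 (adjusted p = 0.000519). Its calls in the E16.5 FP against the E16.5 MM, at 1.30 ± 0.44 (adjusted p = 0.0251), and in the E13.5 MM against the E13.5 SM, at 1.11 ± 0.45 (adjusted p = 0.0361), were each lost when single libraries were left out, with adjusted p up to 0.0938 and 0.0902. Those libraries were E16.5 FP replicates 1 and 4 and E16.5 MM replicates 1, 2 and 5 in the first case, and E13.5 MM replicates 3 and 4 and E13.5 SM replicates 2 to 5 in the second. Col10a1, the marker of hypertrophic cartilage, was at most 11.6 normalized counts, in E16.5 MM replicate 4, and did not pass the expression filter. Its annotation overlaps with that of Nt5dc1 on the opposite strand.

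The multiplexins Col15a1 and Col18a1 sit at basement membranes and carry C-terminal fragments with activity on blood vessels. Col15a1 had 7570.5, 8643, 9643, 8019 and 8487 normalized counts in the E16.5 FP pools and 7739.6, 6916, 6011, 5072 and 6386 in the E16.5 MM pools. At E13.5, Col15a1 had 3536, 3133, 2836, 2686 and 2502 in the MM pools, 2744, 2376, 2846, 2351 and 2659.6 in the VM pools and 2167, 1533, 1671, 2314 and 1807 in the SM pools. Col15a1 was higher in both E16.5 tissues than in all E13.5 pools. Its log2 fold change was 1.13 ± 0.12 in E16.5 MM against E13.5 MM (adjusted p = 1.87e-08), 1.76 ± 0.12 in E16.5 MM against E13.5 SM (adjusted p = 1.85e-12) and 2.16 ± 0.12 in E16.5 FP against E13.5 SM (adjusted p = 3.68e-14). The E13.5 MM was called higher than the E13.5 SM at 0.63 ± 0.12 (adjusted p = 4.39e-05), and the call was lost without E13.5 MM replicate 1 or E13.5 SM replicate 2 (log2 fold change down to 0.56) and with library totals. The E16.5 FP against the E16.5 MM, at 0.40 ± 0.11 (adjusted p = 0.00809), did not reach the fold required.

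Col18a1 had 6141, 7015, 7134, 6103 and 5791 normalized counts in the E16.5 FP pools and 6479.7, 5135, 5723, 5366 and 5692 in the E16.5 MM pools. At E13.5, Col18a1 had 5645, 5375, 4724, 4751 and 3920.2 in the MM pools, 4195, 3722, 4751, 3420.4 and 3968 in the VM pools and 4111, 2857, 3429, 3761 and 2874 in the SM pools. Col18a1 was graded, with each tissue overlapping its neighbours in the order E16.5 FP, E16.5 MM, E13.5 MM, E13.5 VM and E13.5 SM. It was called only against the E13.5 SM, at 0.74 ± 0.11 (adjusted p = 1.95e-06) in the E16.5 MM and 0.92 ± 0.11 (adjusted p = 5.21e-08) in the E16.5 FP, while the E13.5 MM had 0.52 ± 0.11 (adjusted p = 0.000201). The 6 endothelial markers summed to 973 to 1195 CPM in the E16.5 FP, 756 to 931 in the E16.5 MM, 599 to 754 in the E13.5 MM, 567 to 631 in the E13.5 VM and 410 to 479 CPM in the E13.5 SM. That is the same order of tissues as for Col18a1, and the same order as for Col15a1 and Col4a1 by means, while Col4a2 had the E13.5 VM above the E13.5 MM. The part of vessels in these results was not tested.

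Col26a1 and Col28a1 fit none of these classes. Col26a1 had 793, 1133, 918, 941 and 630.3 normalized counts in the E16.5 FP pools and 3049, 3449, 2942, 2976 and 4388 in the E16.5 MM pools. At E13.5, Col26a1 had 8293, 7519, 7184, 8253 and 7562 in the MM pools, 7877, 8315, 8716, 8679.9 and 7221 in the VM pools and 6503, 7697, 6885, 7192 and 6258 in the SM pools. Col26a1, a collagen with a short triple helix, was high in all 3 E13.5 tissues, which overlapped, lower in the E16.5 MM and lowest in the E16.5 FP. Col26a1 had a log2 fold change of -1.21 ± 0.12 in E16.5 MM against E13.5 MM (adjusted p = 7.69e-09) and -1.93 ± 0.12 in E16.5 FP against E16.5 MM (adjusted p = 3.89e-12). Relative to the E13.5 SM it was -1.04 ± 0.12 (adjusted p = 2.78e-08) in the E16.5 MM and -2.97 ± 0.13 (adjusted p = 2.28e-16) in the E16.5 FP, 7.82-fold lower. No difference was called for the E13.5 MM against the E13.5 VM at -0.07 ± 0.12 (adjusted p = 0.777) or against the E13.5 SM at 0.17 ± 0.12 (adjusted p = 0.215).

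Col28a1 had 220.1, 105, 247, 186 and 165 normalized counts in the E16.5 FP pools and 36.7, 73.2, 51.7, 93.7 and 31.2 in the E16.5 MM pools. At E13.5, Col28a1 had 19.2, 9.57, 22.4, 13.3 and 17.7 in the MM pools, 18.3, 26.0, 22.8, 19.3 and 18.8 in the VM pools and 106, 106, 151, 160.2 and 144 in the SM pools. Col28a1, known from the surroundings of Schwann cells in peripheral nerve, was highest in the E16.5 FP and the E13.5 SM, which overlapped, and at most 26.0 counts in all pools of the E13.5 MM and the E13.5 VM. For Col28a1 the log2 fold change was 1.80 ± 0.29 in E16.5 MM against E13.5 MM (adjusted p = 1.57e-05) and 1.69 ± 0.27 in E16.5 FP against E16.5 MM (adjusted p = 1.78e-05). The first of these calls was lost without E16.5 MM replicate 4, where the mean in the E16.5 MM no longer exceeded 50 counts. Set against the E13.5 SM it was lower in the E13.5 MM at -3.02 ± 0.29 (adjusted p = 2.03e-09) and in the E16.5 MM at -1.22 ± 0.27 (adjusted p = 0.000268). Schwann cell and glial markers summed to 53.3 to 93.6 CPM in the E16.5 FP, 68.3 to 84.1 in the E16.5 MM, 102 to 124 in the E13.5 MM, 88.1 to 109 in the E13.5 VM and 83.2 to 112 CPM in the E13.5 SM, and 4 of the 6 were called lower in the E16.5 MM than in the E13.5 MM. In the E16.5 FP against the E16.5 MM, 1 was called higher and 2 lower. Of all genes, 7.16% were called lower in the first of these comparisons, and 6.78% higher and 7.34% lower in the second. The part of Schwann cells and glia in the Col28a1 levels was not tested.

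Because many collagens are built from fixed sets of chains, ratios of counts per kilobase were taken between their genes, mostly partners in 1 trimer. They are a description without a test. Col1a1 over Col1a2 averaged 0.347 ± 0.121 in the E16.5 FP, 0.439 ± 0.0506 in the E16.5 MM, 0.252 ± 0.0363 in the E13.5 MM, 0.304 ± 0.0575 in the E13.5 VM and 0.206 ± 0.0431 in the E13.5 SM (SD, n = 5 each). The type I trimer usually holds more of the Col1a1 chain, and the ratio was below 1 in every pool. E16.5 FP replicate 2 had 0.551, against 0.257 to 0.365 in the other E16.5 FP pools. Col4a1 over Col4a2 was alike in the E16.5 FP (2.62 ± 0.20), E16.5 MM (2.58 ± 0.08), E13.5 MM (2.65 ± 0.27) and E13.5 VM (2.51 ± 0.15), and was lower in the E13.5 SM (1.89 ± 0.15) without overlap. Col6a1 over Col6a2 stayed between 1.35 and 2.05 in all pools.

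Other pairs changed their proportions from tissue to tissue. Of these, Col3a1 and Col1a2 belong to different collagens, types III and I, and Col6a6 and Col6a3 are alternative chains. Col3a1 over Col1a2 averaged 2.99, 2.22, 2.55, 1.501 and 3.65 in the E16.5 FP, E16.5 MM, E13.5 MM, E13.5 VM and E13.5 SM, and the E13.5 VM lay below every other pool. Col5a3 over Col5a1 averaged 0.451 in the E16.5 FP, 0.117 in the E16.5 MM, 0.00914 in the E13.5 MM, 0.00340 in the E13.5 VM and 0.0304 in the E13.5 SM, again without overlap between tissues. Col6a3 over Col6a1 averaged 0.549, 0.715, 0.303, 0.412 and 0.764 in the same order, and Col6a6 over Col6a3 averaged 0.127, 0.0152, 0.0310, 0.00306 and 0.0200. Col4a5 over Col4a6 was highest in the E13.5 VM (15.9 ± 1.93), against 10.7 in the E16.5 FP, 6.63 in the E16.5 MM, 10.3 in the E13.5 MM and 6.77 in the E13.5 SM. Transcript GC content ran from 45.9% for Col25a1 to 62.9% for Col11a2, and its part in ratios between genes was not tested.

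**Figure D5:**
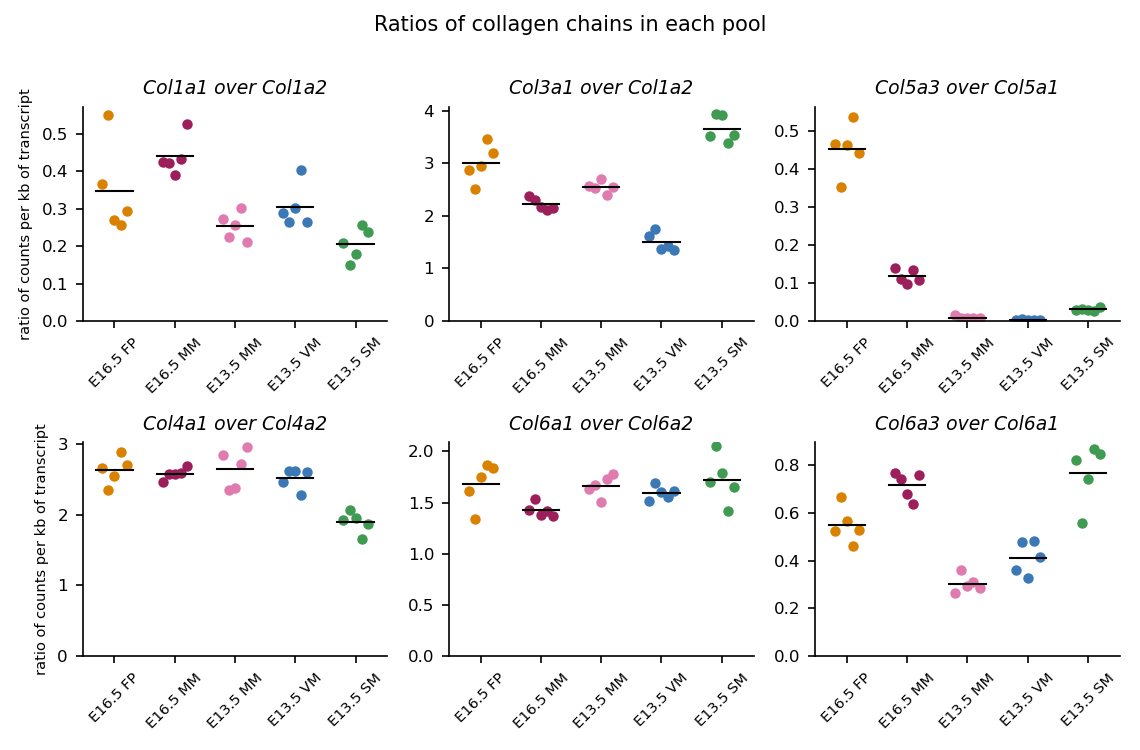
Ratios of counts per kilobase between 6 pairs of collagen genes in each pool, by tissue (y axis, ratio). Col4a1 over Col4a2 is near 2.6 in 4 tissues and 1.89 in the E13.5 SM, and Col5a3 over Col5a1 is 0.451 in the E16.5 FP and at most 0.0366 in any E13.5 pool.

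The genes that modify, fold, cut and bind collagen were followed as a list of 36, all of which were tested. Of these, 3 were called higher and 2 lower (8.33% and 5.56%) in the E13.5 MM against the E13.5 VM, where 3.79% and 2.66% of all genes were called. In the E16.5 MM against the E13.5 MM, 10 were higher and 2 lower (27.8% and 5.56%), beside 12.6% and 7.16% of all genes. The E16.5 FP against the E16.5 MM had 1 higher and 8 lower (2.78% and 22.2%), beside 6.78% and 7.34% of all genes. Against the E13.5 SM, the E13.5 MM had 10 higher and 6 lower (27.8% and 16.7%, beside 14.5% and 15.6%), the E16.5 MM 17 higher and 4 lower (47.2% and 11.1%, beside 18.5% and 16.6%), and the E16.5 FP 13 higher and 7 lower (36.1% and 19.4%, beside 20.2% and 19.3%). The share called lower against the E13.5 SM was thus near or under that of all genes in each tissue. Their median log2 fold change was 0.04, 0.32, -0.33, 0.05, 0.56 and 0.29 in these comparisons, beside medians of -0.01 to 0.03 over all genes.

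Between the E13.5 MM and the E13.5 VM, Tll1, a protease of the family that removes C-propeptides, averaged 321 normalized counts in the E13.5 MM and 73 in the E13.5 VM (log2 fold change 2.14 ± 0.17, adjusted p = 1.52e-09), and Adamts3, which removes N-propeptides, had 0.67. Of the receptors, Itga11 fell to 416 counts in the E13.5 MM, against 1455 in the E13.5 VM (-1.81 ± 0.20, adjusted p = 3.59e-07), and Itga1 had -0.88. Both are integrin subunits that bind collagen. In the E16.5 MM against the E13.5 MM, Pcolce2, an enhancer of propeptide cleavage, had 2.70 and Adamts14 1.89, while Itga11 had -1.26 and Tll1 -0.76. Of the 15 modifying enzymes of the endoplasmic reticulum, 5 were called higher there and none was called lower, beside 12.6% and 7.16% of all genes.

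In the E16.5 FP against the E16.5 MM, Tll2 had 2.05, and Itga11 and Adamts2 had -1.77 and -1.42. Relative to the E13.5 SM, P4ha3, a subunit of prolyl hydroxylase, had log2 fold changes of 2.58 in the E13.5 MM, 3.65 in the E16.5 MM and 3.11 in the E16.5 FP. Itga11 had 2.74 in the E13.5 MM, and Pcolce2 had 3.89 in the E16.5 MM and 4.41 in the E16.5 FP. Plod2, a lysyl hydroxylase that acts on telopeptides, averaged 1819 counts in the E13.5 MM (-1.78) and 2039 in the E16.5 MM (-1.61), against 6238 in the E13.5 SM. Adamts14 had -1.74 in the E13.5 MM, Adamts3 had -1.84 in the E16.5 MM and -2.08 in the E16.5 FP, and the collagen receptor Ddr1 had -1.60 in the E16.5 FP. All of the changes named for this list were called.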

How the data were processed

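RNA-Seq was analysed from the deposited gene table of 25 pools. Its values are estimated counts, which the authors made with Salmon 0.99.0 on mm10 after FastQC 0.11.8, MultiQC 1.9, Trimmomatic 0.39 and SortMeRNA, and which were whole numbers as deposited. The submitters' processing notes also list DESeq2. The annotation release was not given in the sources used here. Genes without a symbol (446) held 0.103% of counts.

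Symbols and transcript lengths came from GENCODE annotation of the same genome. Counts were tested with edgeR 4.0.16 (R 4.3.3): genes were filtered with filterByExpr, TMM factors were applied, and a robust quasi-likelihood fit to all 25 pools, without covariates, was used for the 6 comparisons (common dispersion 0.0433, 20 residual degrees of freedom). P-values were Benjamini-Hochberg adjusted over 17657 genes. The procedure was tested on simulated data for the E13.5 MM against the E13.5 SM, with 50 genes at each fold. It recovered 46% of 1.5-fold, 98% of 2-fold and 100% of 3-fold increases, and 88% of decreases to 0.5-fold. Many changes near the fold required for a call were thus missed.

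All 42 collagen genes were to be named. Values per pool were given for the most abundant gene of each class and for up to 4 called genes per direction with the largest change in each comparison. The members and the lists of assembly and marker genes were chosen with earlier results of these data known. Alternatives were the DESeq2 1.42.0 Wald test, its size factors, library totals alone, no filter, the count threshold on both tissues, only the compared tissues, a replicate block and leaving out each library. Library totals set the counting precision, and no 2 libraries were identical.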

Additional observations from a re-analysis of the deposited data

Results flagged for a closer look

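In 17 of 205 combinations of a tested collagen gene and a tissue (8.29%), the highest or lowest of the 5 pools stood apart from the other 4, by a gap of more than 0.71 of the tissue's range. Chance gives about 1 in 20. The values are normalized counts.

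Of the fibrillar and basement membrane genes, Col3a1 had 247231 in E13.5 SM replicate 2, against 193293 to 202150.0 in the other 4 pools. Col5a3 had 9195 in E16.5 FP replicate 5 (others 10675 to 11016) and 74.8 in E13.5 VM replicate 2 (others 37.7 to 45.5). Col4a1 was low in E13.5 SM replicate 5 at 12484, where the others had 14433 to 14928. Col4a3, a gene of few counts, had 8.42 in E16.5 MM replicate 3 (others 19.1 to 21.6) and 7.81 in E13.5 MM replicate 3 (others 2.65 to 3.92). Col4a6 had 252.4 in E16.5 MM replicate 1, against 171 to 183 in the rest.

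Among the other classes, Col8a2 had 3581 in E13.5 VM replicate 2 (others 835 to 1521), Col7a1 had 257 in E16.5 FP replicate 1 (others 72.4 to 113) and Col9a1 had 195 in E13.5 SM replicate 1 (others 42.3 to 75.1). Col14a1 had 28157 in E16.5 FP replicate 2 (others 18295 to 19698) and 32380 in E16.5 MM replicate 5 (others 28319 to 29117). Col16a1 had 6557 in E16.5 FP replicate 1, below the 7774 to 8161 of the others, and Col17a1 had 333 in E13.5 SM replicate 2, above the 175 to 214 of the others. Col23a1 had 2890.2 in E16.5 MM replicate 5 (others 1442 to 1736) and 7127 in E13.5 MM replicate 5 (others 4034 to 4854). Col25a1 had 1875 in E13.5 VM replicate 2, against 1114 to 1227 in the other 4 pools.

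These values came from 13 genes and 12 libraries, with 3 in E13.5 VM replicate 2 and 2 each in E13.5 SM replicate 2, E16.5 FP replicate 1 and E16.5 MM replicate 5.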

How the results depend on the processing

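Of the 150 collagen calls, 127 were kept in every setting tried, 20 were lost when some single library was left out and 17 in some other setting, and no log2 fold change of a called gene changed sign. With 1 library left out, the numbers of collagen genes called were 11 to 13 (E13.5 MM against E13.5 VM), 27 to 28 (E16.5 MM against E13.5 MM), 23 to 25 (E16.5 FP against E16.5 MM) and, against the E13.5 SM, 20 to 25 (E13.5 MM), 29 to 31 (E16.5 MM) and 28 to 31 (E16.5 FP). Under the other settings they were 10 to 14, 27 to 28, 23 to 26, 21 to 24, 30 to 31 and 29 to 31. Of up to 246 gene results per setting, the DESeq2 Wald test lost 2 calls and its size factors 2, library totals 4, the threshold on both tissues 4, no filter 6 and only the compared tissues 7. With the replicate block, higher and lower calls were 8 and 6, 20 and 8, 6 and 19, 15 and 8, 23 and 7, and 17 and 13. It lost Col19a1 in the E16.5 MM against the E13.5 SM (adjusted p = 0.0567) and gained Col9a1 in the E13.5 MM against the E13.5 VM. The labels do not say what a replicate number stands for, and deviations of same-numbered pools correlated at -0.374 to 0.289 (median 0.017, 50 pairs), so the block is given only here. Counts under about 50 limit Col2a1, Col4a3, Col4a4 and Col10a1.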
